A study of Mus musculus with 2 samples.

Results

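T cells that carried Izumo1r transcripts but no Foxp3 transcript were examined in mediastinal lymph nodes (MedLNs) of mice with ovalbumin (OVA)-induced asthma. A cell was taken as an Izumo1r+ cell when it held at least 2 unique molecular identifiers (UMIs, each standing for 1 captured RNA molecule) of Izumo1r, or 1 UMI of Izumo1r together with at least 1 of Nt5e. It also had to hold at least 1 UMI of Cd3e, Cd3d or Cd3g, none of Cd8a, Cd8b1, Cd79a, Cd79b, Foxp3, Mki67 or Top2a, and at most 1 of the 5 follicular helper genes Cxcr5, Pdcd1, Bcl6, Il21 and Tox2. The conditions other than those on Izumo1r and Nt5e are called the gate. Of 18100 cells kept in both libraries, 412 were chosen by this rule. They had been proposed as anergic-like conventional CD4+ T cells, with Izumo1r, Nt5e and Lag3 as markers, and the values below go against a single class under that name in 2 respects: regulatory T cell genes were raised in a minority of them, and most lay in clusters shared with the remaining gated cells. Lag3 was detected in few of them, though more often than in the remaining gated cells. They are therefore called Izumo1r+ cells. The genes of the rule were selected on, so their levels are a description only.

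The series holds 1 library from WT C57/B6J mice with OVA-induced asthma and 1 from mice that also received butyrate, a short-chain fatty acid that gut bacteria make from fibre. Each library was made from the pooled MedLN cells of 4 mice on the 10x Genomics droplet platform, so a difference between the libraries has no replicate check. No test could be made, and the 95% intervals cover counting error only. The labels give neither the age of the mice nor the route by which these mice took butyrate, and the study's methods describe both drinking water and gavage. For age, the methods give a single range in weeks for all mice of the study, matched within each experiment. The library without butyrate held 9681 cells and 59176459 UMIs, of which 9495 cells were kept. The library with butyrate held 8932 cells and 58381292 UMIs, of which 8605 cells were kept. The libraries shared 25 cell barcodes, carried by 0 of the Izumo1r+ cells without and 1 with butyrate.

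Anergy is a state in which a T cell that met its antigen without sufficient costimulation survives but responds poorly to the next encounter. Izumo1r encodes folate receptor 4 (FR4) and Nt5e encodes CD73, the ectoenzyme that turns AMP into adenosine, and cells high in both proteins are known from mouse work on anergic CD4+ T cells. Both proteins are also abundant on Foxp3+ regulatory T cells and on follicular helper T (Tfh) cells. Lag3 is an inhibitory receptor that binds MHC class II. In the mm10 assembly, Izumo1r lies on chromosome 9 at 14885814-14903949 on the minus strand. Nt5e lies on the same chromosome at 88327197-88372092 on the plus strand, and Lag3 on chromosome 6 at 124904361-124911705 on the minus strand (GENCODE M21 gene spans, UTRs included).

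The gate held 1636 cells without and 1317 with butyrate, and 232 and 180 of them were Izumo1r+. Their share was 14.2% (exact binomial interval 12.5 to 16.0%) without butyrate and 13.7% (11.9 to 15.6%) with it. The log2 ratio of the shares was -0.05, with a counting interval from -0.34 to 0.23 that spans 0. Of all kept cells, the Izumo1r+ cells made up 2.44% and 2.09%. After cells were thinned to 2000 UMIs, which left out 104 shallower cells without and 60 with butyrate (3 and 4 of them Izumo1r+), the rule found 135 of 2096 gated cells (6.44%) without and 92 of 1775 (5.18%) with butyrate, a log2 ratio of -0.31 (-0.71 to 0.08). The thinned gate is wider because the genes that exclude a cell are also seen less often. Without butyrate the Izumo1r+ cells had a median of 5280.5 UMIs against 4866.5 in the other gated cells, and with butyrate 5628 against 5649.

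Most members lay close to the threshold. Exactly 2 UMIs of Izumo1r were found in 99 members without and 61 with butyrate, 3 UMIs in 53 and 40, and 4 or more in 51 and 41. The highest count in a single cell was 13 and 15 UMIs. Members with 1 UMI of Izumo1r and a UMI of Nt5e numbered 29 and 38. Just outside the rule stood 207 and 179 gated cells with 1 UMI of Izumo1r and none of Nt5e. Members that met both markers firmly, with at least 2 UMIs of Izumo1r and at least 1 of Nt5e, were few, 35 and 26 cells, against 168 and 116 with at least 2 UMIs of Izumo1r and none of Nt5e.

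Izumo1r and Nt5e were detected in several other lymph node cells. At least 1 UMI of Izumo1r was found in 73.0% of 122 Foxp3+ cells without and 71.8% of 124 with butyrate. Among cells with at least 2 of the 5 follicular helper genes (Tfh-marker cells, 29 and 22), it was found in 82.8% and 81.8%. CD8+ T cells gave 11.2% and 14.9%, and B cells, which served as the background of free RNA, 0.721% and 1.12% at median depths of 4443 and 4699 UMIs. As a level, Izumo1r reached 534 CPM (UMIs of a gene per 1000000 summed UMIs) in Izumo1r+ cells without butyrate and 480 with it, 475 and 551 CPM in Foxp3+ cells, and 546 and 716 CPM in Tfh-marker cells. Nt5e was detected in 27.6% and 35.6% of Izumo1r+ cells, 31.1% and 36.3% of Foxp3+ cells and 48.3% and 50% of Tfh-marker cells. It was found in 5.13% and 4.49% of the other gated cells, 15.2% and 15.5% of CD8+ T cells, and 0.824% and 0.409% of B cells.

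Lag3, which the rule did not use, was detected in 5 of 232 Izumo1r+ cells without butyrate (2.16%, interval 0.703 to 4.96%) and in 5 of 180 with it (2.78%, 0.908 to 6.36%). The other gated cells held 2 Lag3-positive cells of 1404 (0.142%) without and 0 of 1137 with butyrate, where a count of 0 allows a share of cells with a Lag3 UMI of up to 0.264% and sets no limit on cells that express the gene. Foxp3+ cells gave 3.28% and 4.03% and Tfh-marker cells 13.8% and 18.2%. Of these Lag3-positive members, 4 without and 3 with butyrate were among the 35 and 26 cells with at least 2 UMIs of Izumo1r and 1 of Nt5e. A Lag3 UMI was more frequent in the Izumo1r+ cells than in the other gated cells of both libraries, on 6 and 7 Lag3 UMIs in members against 2 and 0. Of the Lag3-positive members, 5 of 5 without and 3 of 5 with butyrate also held at least 2 of the 9 regulatory T cell markers named further on, and 0 of 146 and 2 of 116 members with fewer such markers held Lag3. The Lag3-positive members had a median of 3697 UMIs without and 12937 with butyrate, and the part of depth in their detection was not tested.

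**Figure D1:**
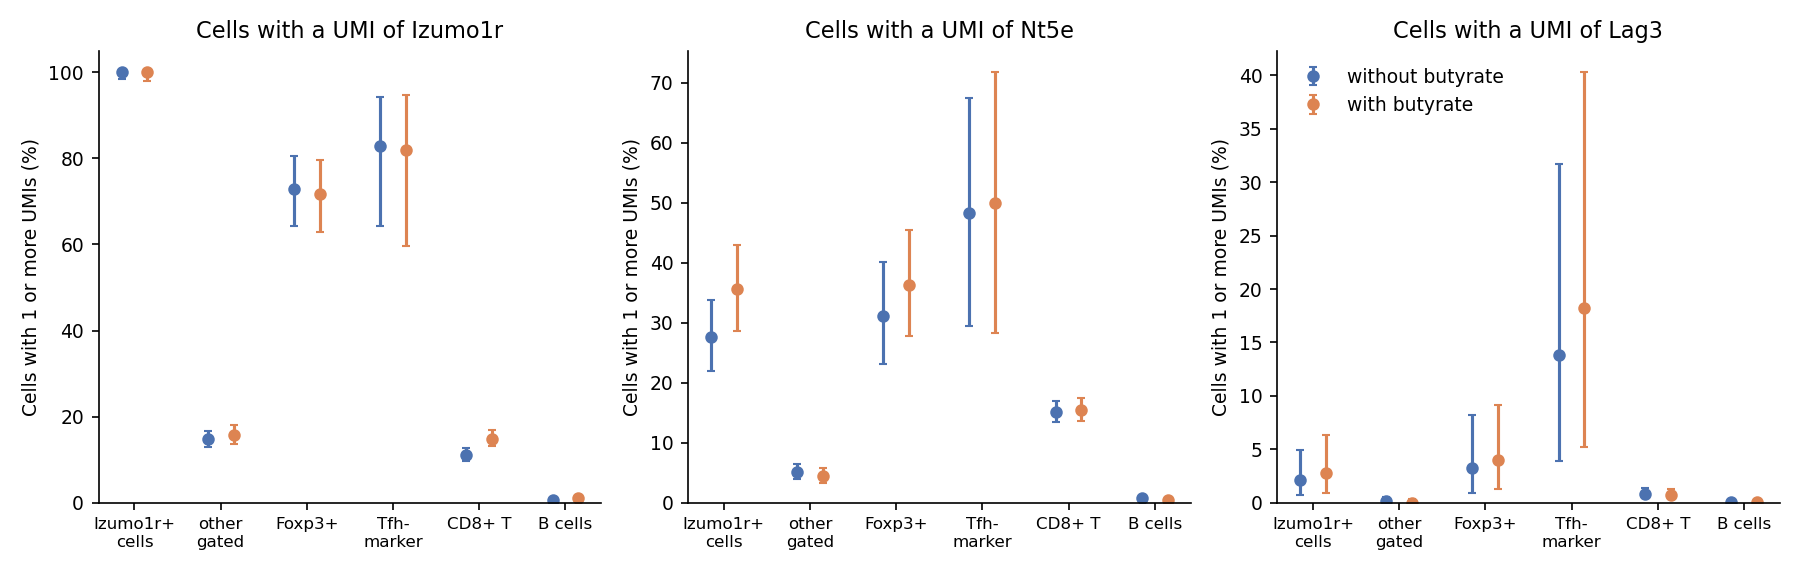
Share of cells (%, vertical axis) with at least 1 UMI of Izumo1r, Nt5e and Lag3 in 6 classes of lymph node cells, without (blue) and with (orange) butyrate; bars are 95% exact binomial intervals and cover counting error only. Izumo1r stood at 73.0% and 71.8% in Foxp3+ cells and at 82.8% and 81.8% in Tfh-marker cells, and Lag3 at 2.16% and 2.78% in the Izumo1r+ cells; the Izumo1r+ cells are at 100% for Izumo1r because they were chosen by it.

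Cd4 was not part of the rule. A Cd4 UMI was found in 51.3% of Izumo1r+ cells without butyrate and 50% with it, against 48.3% and 50.8% of the other gated cells and 0.644% and 0.599% of B cells. The α-chain constant gene Trac reached 674 and 750 CPM in members, against 652 and 639 CPM in the other gated cells. Markers of cells other than αβ T cells were summed over each list. Of the 7 γδ T cell markers, 2 were at 0 in both libraries and the summed level was 60.6 and 11.7 CPM, against 105 and 100 CPM in the other gated cells, with Trdc, the δ-chain constant gene, the most abundant. The 9 natural killer (NK) and innate-like T cell markers summed to 103 and 45.9 CPM against 154 and 209 CPM, with Nkg7 the most abundant, and 2 of them, Zbtb16 and Ncr1, were at 0. Of the 10 myeloid and dendritic cell markers 6 were at 0, and Cst3 made up most of their sum of 96.3 and 87.2 CPM. The 11 B cell markers summed to 630 and 540 CPM against 632 and 582 CPM, with Ighm the most abundant. Ighm was detected in 64.7% and 64.4% of members and in 61.4% and 68.4% of the other gated cells, while Ms4a1, a defining B cell gene, reached 6.99 and 6.29 CPM against 4.83 and 2.92 CPM.

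Several regulatory T cell genes were higher in the Izumo1r+ cells than in the other gated cells. Of 4636 genes with a mean of at least 20 CPM, 10 (0.216%) were at least 2-fold higher in both libraries and 0 (0%) at least 2-fold lower, as ratios of CPM with 10 CPM added to each level. Over all 4636 genes, 1589 were above and 1124 below 0 in both libraries. In a single library, 16 genes were 2-fold higher without and 14 with butyrate, and 0 and 9 were 2-fold lower. The 10 genes were Tnfrsf4, Nrp1, Ctla4, Ikzf2, Il2ra, Tbc1d4, Cd200, Pou2f2, Tnfsf8 and Eea1. Of these, Tnfrsf4, Nrp1, Il2ra, Cd200 and Eea1 passed the filter through the members alone, so their place in the count rests on the class where they were high. Of the 15 regulatory T cell markers listed without Foxp3, 7 passed the filter, and 5 were past 2-fold. Il2ra, Nrp1 and Tnfrsf4 passed it through the members alone, so no median over the 7 is read. With no filter on low genes, the median over the list's genes of their mean log2 ratio was 0.95, against 0.72 for the Tfh-linked genes described below. A further setting, added once these values were known, left out all cells with at least 2 of the 9 regulatory T cell markers listed below, and 0 genes were then 2-fold higher and 1 lower. Since Ctla4, Ikzf2, Il2ra, Tnfrsf4 and Nrp1 are among those 9, their loss follows from the setting.

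Ikzf2, which encodes Helios, a transcription factor of regulatory T cells, reached 193 CPM in Izumo1r+ cells and 41.0 CPM in the other gated cells without butyrate, a 4.72-fold difference (counting interval 3.96 to 5.61). With butyrate it reached 123 against 34.2 CPM, 3.60-fold (2.89 to 4.47). Ctla4, an inhibitory receptor that competes with CD28 for its ligands, reached 132 against 26.3 CPM (5.03-fold) and 107 against 20.1 CPM (5.32-fold). Both were intermediate in the Izumo1r+ cells, since Foxp3+ cells without butyrate held 675 CPM of Ikzf2 and 447 CPM of Ctla4. Tfh-marker cells also stood above the members, with 313 and 418 CPM of Ikzf2 and 145 and 165 CPM of Ctla4.

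Nrp1, the semaphorin co-receptor neuropilin 1, reached 77.7 against 6.81 CPM without butyrate, 11.4-fold (8 to 16.4), and 49.5 against 8.75 CPM with butyrate, 5.65-fold (3.83 to 8.34). Il2ra, the α-chain of the interleukin 2 receptor, was at 37.3 against 6.81 CPM (5.47-fold, 3.59 to 8.34) and 51.3 against 7.67 CPM (6.68-fold, 4.49 to 9.97). Tnfrsf4, the costimulatory receptor OX40, was at 75.4 against 12.2 CPM (6.17-fold) and 82.7 against 8.75 CPM (9.46-fold). A single cell held 15.5% of the Tnfrsf4 UMIs of all members without and 26.1% with butyrate. With butyrate, the largest share of the members' UMIs in a single cell was 26.4% for Eea1, 24.6% for Cd200, 21.3% for Tbc1d4, 17.9% for Tnfsf8 and 15.8% for Il2ra. These shares were taken gene by gene and need not come from the same cell. The β-chain gene Il2rb was higher by 3.12-fold and 1.85-fold and so stood past 2-fold in the library without butyrate alone.

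**Figure D2:**
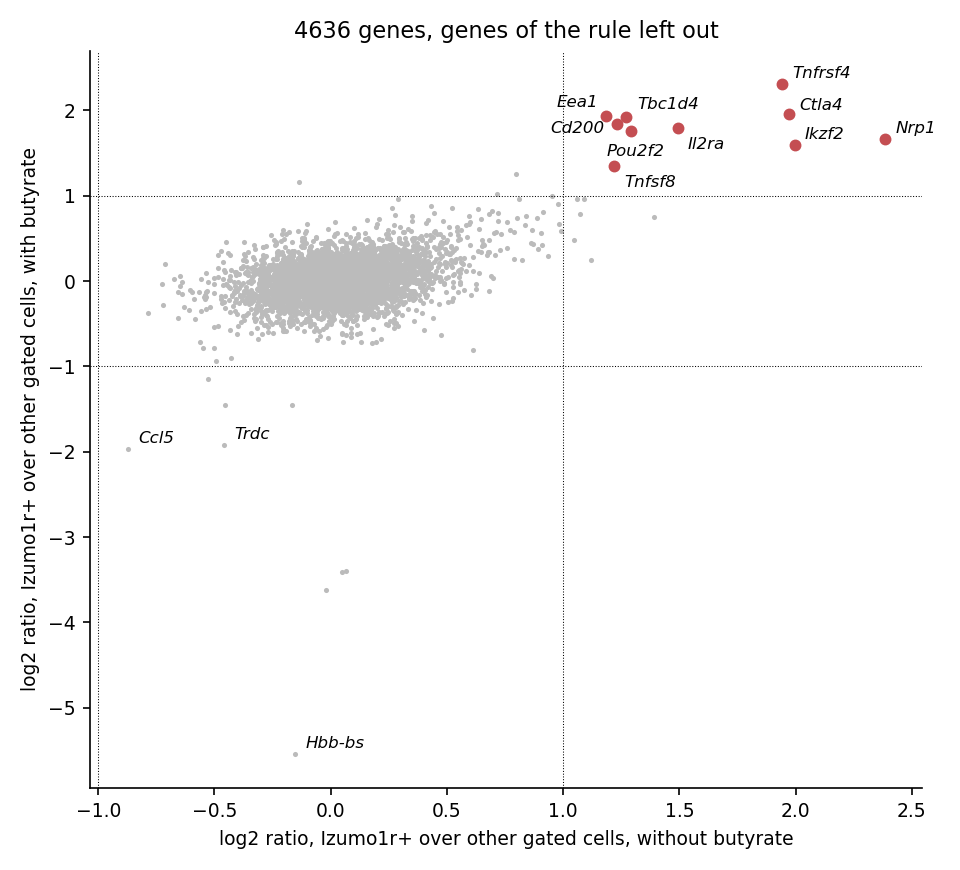
Log2 ratio of CPM (10 CPM added) in Izumo1r+ over other gated cells for 4636 genes, without butyrate on the horizontal and with butyrate on the vertical axis; dotted lines mark 2-fold and red points the 10 genes past it in both libraries. The red points lie between 1.18 and 2.38 on the horizontal axis, and the lowest point, hemoglobin gene Hbb-bs, was low on the vertical axis alone, with 98.9% of its UMIs in the other gated cells in 1 cell.

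The raised regulatory genes sat in a minority of the Izumo1r+ cells. Of 9 regulatory T cell markers (Il2ra, Ikzf2, Ikzf4, Ctla4, Tnfrsf18, Tnfrsf4, Gpr83, Nrp1 and Lrrc32), 4 or more were detected in 21.1% of Izumo1r+ cells without and 14.4% with butyrate. The other gated cells gave 1.71% and 1.76%, the Foxp3+ cells 71.3% and 59.7%, and the few Tfh-marker cells 10.3% and 31.8%. At least 2 of the 9 were detected in 69.0% and 86.4% of Tfh-marker cells, against 37.1% and 35.6% of Izumo1r+ cells. The markers were thus not particular to Foxp3+ cells. None of the 9 was detected in 34.9% and 35.6% of Izumo1r+ cells, in 60.3% and 58.6% of the other gated cells and in 1.64% and 3.23% of Foxp3+ cells. Members with at least 2 UMIs of Izumo1r and 1 of Nt5e showed 4 or more markers most often, in 54.3% and 23.1%, while members with Izumo1r alone did so in 13.7% and 12.1%. Gated cells just outside the rule did so in 2.90% and 3.35%.

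Foxp3 itself was sparsely captured. Of the Foxp3+ cells, 40.2% without and 36.3% with butyrate were called on a single Foxp3 UMI, and the median was 2 UMIs in both libraries. Whether a member's Foxp3 count of 0 reflects lack of the transcript or its loss in capture was not tested.

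**Figure D3:**
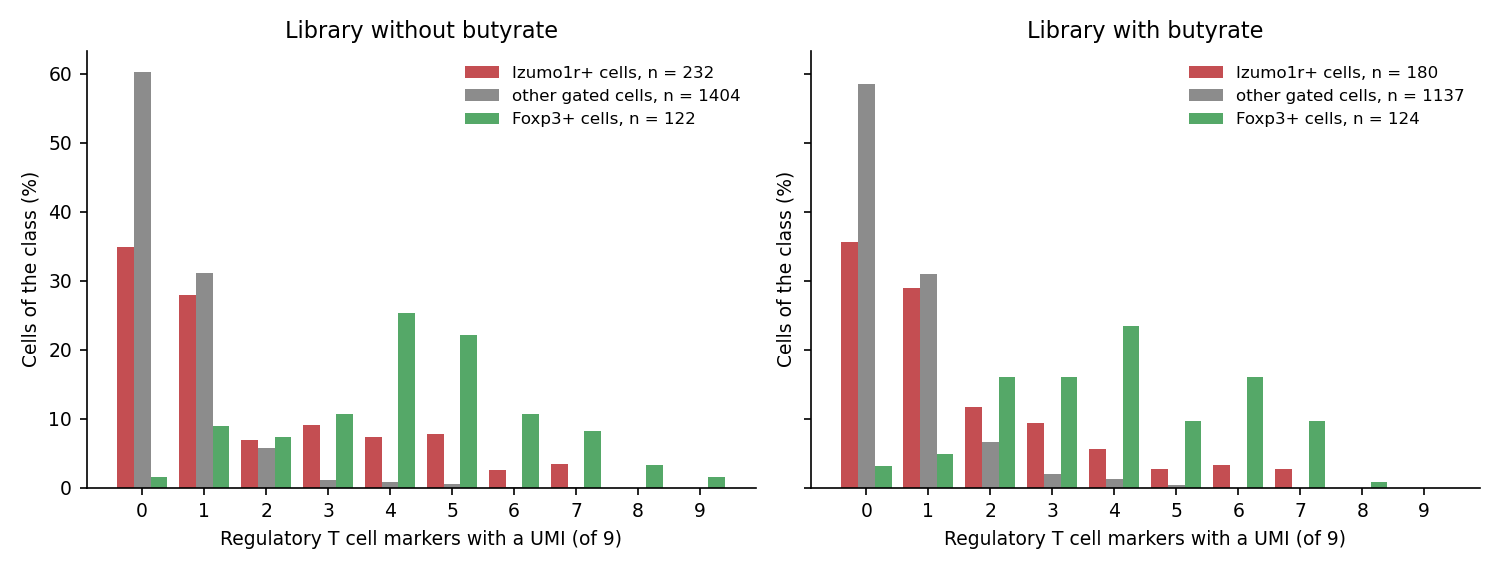
Share of cells (%, vertical axis) by the number of 9 regulatory T cell markers with at least 1 UMI (horizontal axis) in Izumo1r+ cells (red), other gated cells (grey) and Foxp3+ cells (green), 1 panel a library. At 0 markers the red bars stand at 34.9% and 35.6%, between the grey (60.3% and 58.6%) and the green ones (1.64% and 3.23%), and they extend to 7 markers, with 21.1% and 14.4% of Izumo1r+ cells at 4 or more.

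To describe which transcriptional neighbours the Izumo1r+ cells had, the gated cells were clustered together with the Foxp3+ and Tfh-marker cells on 2009 variable genes, with the genes of the rule left out. This gave 11 clusters. Cluster 5 was led by Foxp3, Ikzf2, Il2ra, Tnfrsf4, Ctla4 and Nrp1 and held 92.6% and 86.3% of the Foxp3+ cells. It also held 55 of 232 Izumo1r+ cells without butyrate (23.7%, 18.4 to 29.7%) and 45 of 180 with it (25%, 18.9 to 32.0%), against 2.85% and 3.08% of the other gated cells. Cluster 8 was led by Lyz2, Sostdc1, Apoe, Ifitm1 and Itgb1, with Tox2, Pdcd1 and Maf also among its 10 leading genes, and held 79.3% and 77.3% of the Tfh-marker cells. Lyz2 and Apoe mark myeloid cells. In cluster 8 without butyrate, 1 cell held all 193 Lyz2 UMIs and 73.2% of the 254 Apoe UMIs. The Izumo1r+ cells of the cluster held 0 Lyz2 UMIs in both libraries and 1 and 3 Apoe UMIs, and the part of myeloid RNA in the cluster was not tested. The cluster took 22 (9.48%) and 24 (13.3%) of the Izumo1r+ cells, against 3.06% and 3.87% of the other gated cells. The remaining 155 (66.8%) and 111 (61.7%) lay in clusters shared with the bulk of the gated cells.

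These 3 sets of Izumo1r+ cells differed in their levels. Izumo1r reached 905 and 751 CPM in the members of cluster 5, 636 and 546 CPM in those of cluster 8, and 424 and 392 CPM in the rest, against 489 and 614 CPM in the Foxp3+ cells of cluster 5. Nt5e was detected in 41.8% and 46.7% of members in cluster 5, 36.4% and 50% in cluster 8 and 21.3% and 27.9% in the rest. Ikzf2 was found in 83.6% and 68.9% of members in cluster 5, close to the 74.3% and 77.6% of Foxp3+ cells there, but in 5.81% and 3.60% of members in the remaining clusters, near the 4.69% and 6.05% of the other gated cells beside them. Ctla4 ran from 78.2% and 62.2% in cluster 5 to 14.8% and 13.5% in the remaining clusters, where the other gated cells gave 6.59% and 5.10%. Ikzf2 and Ctla4 are leading genes of cluster 5, so their differences between clusters describe the clustering.

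The clusters were made from expression, so levels that differ between them describe the clustering, and Maf, Tbc1d4, Itgb1 and Sostdc1 are leading genes of cluster 8. Icos, the inducible costimulator, was detected in 63.6% and 75% of members in cluster 8, against 21.8% and 17.8% of members in cluster 5 and 14.2% and 23.4% of those in the remaining clusters. Maf, a transcription factor of Tfh cells, was found in 63.6% and 45.8%, Tbc1d4, a Rab GTPase-activating protein, in 72.7% and 58.3%, and Itgb1, the β1 integrin, in 59.1% and 66.7%. Sostdc1, a secreted antagonist of bone morphogenetic proteins, was found in 13.6% and 4.17% of them, against 34.8% and 47.1% of the Tfh-marker cells in the same cluster. Cd4 was detected in 86.4% and 79.2% of members in cluster 8, in 36.4% and 33.3% in cluster 5 and in 51.6% and 50.5% in the rest.

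**Figure D4:**
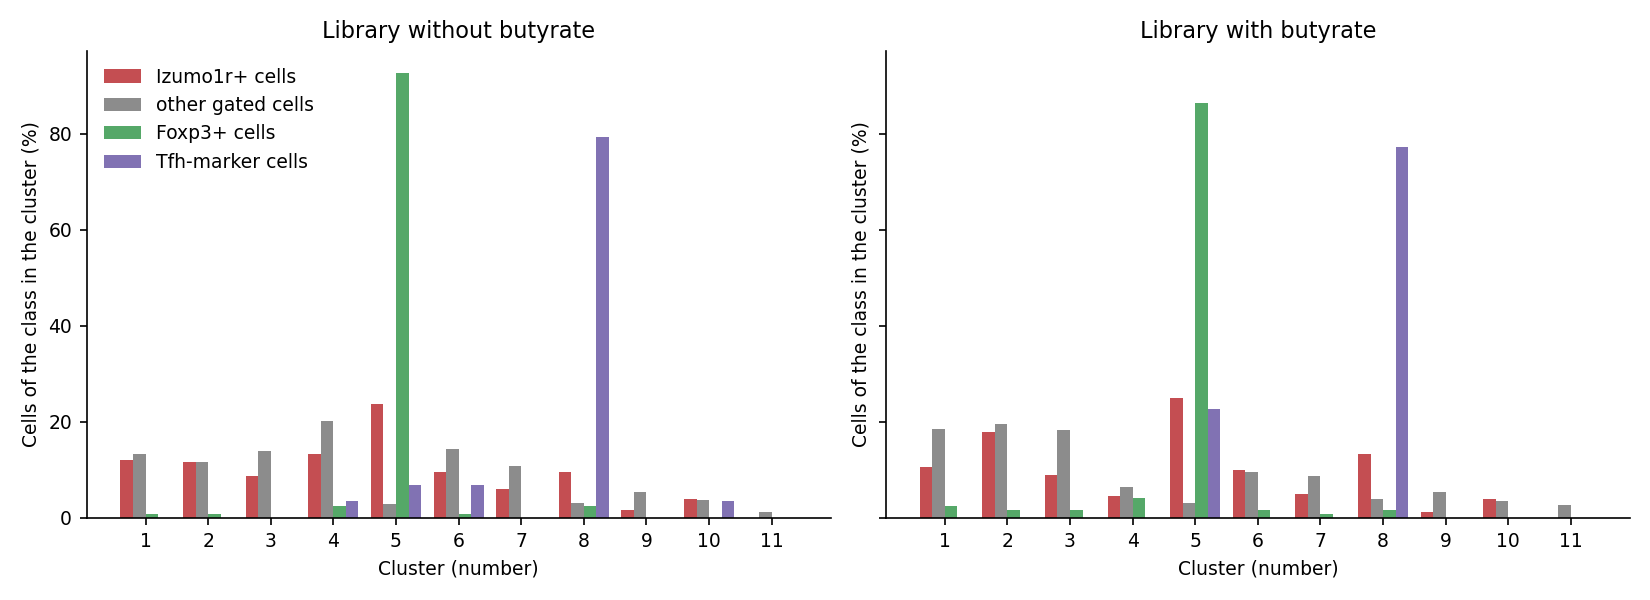
Share of each class of cells (%, vertical axis) in each of the 11 clusters (horizontal axis), 1 panel a library: Izumo1r+ cells (red), other gated cells (grey), Foxp3+ cells (green) and Tfh-marker cells (purple). The Izumo1r+ cells exceed the other gated cells in cluster 5, with 23.7% and 25%, and in cluster 8, with 9.48% and 13.3%.

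As a list, genes that brake T cell receptor signalling, which include those tied to anergy, differed little between Izumo1r+ and other gated cells. Of 24 such genes 17 passed the filter, 10 were above and 4 below 0 in both libraries, against 1589 and 1124 of all 4636 genes, and 0 were past 2-fold. Their median log2 ratio was 0.16 without and 0.12 with butyrate. With no filter on low genes, the median over the genes of their mean log2 ratio was 0.22. Dusp2, a phosphatase of MAP kinases and the most abundant, was at 440 against 365 CPM without and 278 against 284 CPM with butyrate. Cblb, a ubiquitin ligase required for anergy, was at 143 against 97.8 CPM and 97.1 against 93.3 CPM. Egr2 and Egr3, transcription factors induced in anergic T cells, did not pass the filter: Egr2 was at 6.22 against 3.41 CPM and 4.50 against 3.07 CPM, and Egr3 at 17.1 against 7.38 CPM and 17.1 against 7.37 CPM. The ligase gene Rnf128 (GRAIL) had 1.55 CPM without butyrate and 0 CPM with it.

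Among 12 inhibitory receptors, 6 passed the filter, Cd200 through the members alone, and with no filter the median over the genes of their mean log2 ratio was 0.19. Ctla4 and Cd200, the receptor ligand CD200, were past 2-fold, against 10 of all 4636 genes (0.216%). Cd200 was at 34.2 against 8.80 CPM (3.88-fold, 2.58 to 5.81) and 54.9 against 8.13 CPM (6.74-fold, 4.59 to 9.94). Cd5, a negative regulator whose level follows the strength of self-recognition, was the most abundant, at 217 against 152 CPM and 215 against 147 CPM. Tigit and Havcr2 did not exceed 2.33 CPM in the Izumo1r+ cells of either library. Of 12 costimulatory receptors 10 passed, 9 were above 0 in both libraries, against 1589 of all 4636 genes, and Tnfrsf4, which passed the filter through the members alone, was past 2-fold. The median of their mean log2 ratios was 0.37, and 0.46 with no filter. Without cells of 2 or more of the 9 regulatory markers, this median turned slightly negative. Icos was at 76.9 against 38.6 CPM and 77.3 against 41.4 CPM, and Cd28 at 284 against 257 CPM and 266 against 218 CPM.

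Of 16 genes linked to Tfh cells beyond those of the rule, 11 passed the filter, of which 3 were past 2-fold (Tbc1d4, Tnfsf8 and Cd200), against 10 of all 4636 genes (0.216%). Cd200 passed it through the members alone. Tbc1d4 was at 85.5 against 29.5 CPM (2.89-fold, 2.28 to 3.66) and 97.1 against 18.3 CPM (5.32-fold, 4.06 to 6.96), and Tnfsf8, the ligand of CD30, at 120 against 46.0 CPM and 126 against 43.4 CPM. Slamf6, an adhesion receptor between T and B cells, was the most abundant, at 172 against 120 CPM and 195 against 116 CPM. Both Tbc1d4 and Tnfsf8 were higher in Tfh-marker cells, with 702 and 354 CPM without butyrate. Their levels lay mostly in members with at least 2 of the 9 regulatory T cell markers (86 and 64 cells). In those, Tbc1d4 was at 192 and 222 CPM and Tnfsf8 at 249 and 309.97 CPM. Of the Tfh-marker cells, 20 of 29 and 19 of 22 also held at least 2 of these markers. The split therefore does not separate members like regulatory T cells from members like Tfh cells. In the 146 and 116 members with 0 or 1 marker, Tbc1d4 was at 26.5 and 36.1 CPM, against 29.5 and 18.3 CPM in the other gated cells. Tnfsf8 was at 49.4 and 36.1 CPM in these members, against 46.0 and 43.4 CPM. There Cd200 was at 20.5 and 22.7 CPM and Pou2f2 at 49.4 and 61.5 CPM, both above their levels in the other gated cells. Pou2f2, an octamer-binding transcription factor, and Eea1, an endosomal tethering protein, completed the genes past 2-fold. Pou2f2 was at 79.2 against 26.4 CPM and 112 against 25.8 CPM, and Eea1 at 25.6 against 5.68 CPM and 47.7 against 5.06 CPM. Eea1 passed the filter through the members alone.

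Of the naive and quiescence genes, all 18 passed the filter and 0 were past 2-fold. In both libraries 0 were above and 10 below 0, against 1589 and 1124 of all 4636 genes, and the medians were -0.09 and -0.16. Klf2, which maintains quiescence and egress, was at 1398 against 1652 CPM and 1303 against 1484 CPM, Lef1, a transcription factor of naive T cells, at 462 against 516 CPM and 414 against 532 CPM, and Satb1, a chromatin organizer of naive T cells, at 406 against 509 CPM and 352 against 483 CPM. Within the members, Lef1 was at 575 and 520.4 CPM in those with 0 or 1 regulatory T cell marker and at 258 and 195 CPM in those with 2 or more. Of 20 effector or memory genes 16 passed, 8 were above and 3 below 0 in both libraries, against the same 1589 and 1124 of 4636, and the medians were 0.20 and 0.04. The median over the genes of their mean log2 ratio was 0.04, and 0.71 with Cd4 required. Cd44, an adhesion receptor raised after antigen encounter, was detected in 11.6% and 17.8% of Izumo1r+ cells and 7.83% and 13.2% of the other gated cells. S100a10 was the most abundant, at 425 against 333 CPM and 397 against 339 CPM. Ly6c2 was lower, at 39.6 against 61.5 CPM and 19.8 against 55.9 CPM.

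In the 12 genes of the adenosine and purine pathway, where CD73 acts, 4 passed the filter, 3 were above 0 in both libraries, against 1589 of all 4636 genes, and the medians were 0.43 and 0.21. Adk, adenosine kinase, was at 69.9 against 41.6 CPM and 52.2 against 38.8 CPM. Dpp4, which anchors adenosine deaminase on the cell, was at 56.7 against 32.4 CPM and 31.5 against 20.7 CPM. P2rx7, the receptor of extracellular ATP, stayed under the filter, with 22.5 against 6.25 CPM and 28.8 against 6.75 CPM. Entpd1 (CD39), which makes the AMP that CD73 uses, was found at 3.11 and 3.60 CPM in the Izumo1r+ cells, against 0.284 and 0.307 CPM in the other gated cells. These Entpd1 levels rest on few UMIs. A single UMI was 0.777 and 0.899 CPM in members, and 0.142 CPM in the other gated cells without butyrate.

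Il4, Il5 and Il13 were captured rarely or not at all, which sets no limit on cells that express them. Of 17 helper lineage factors and cytokines, Gata3 and Tgfb1 passed the filter, with Gata3, the factor of type 2 helper cells, at 68.4 against 43.9 CPM and 57.5 against 46.3 CPM. Il4 was at 4.66 and 2.70 CPM, and Il13 and Il5 at 0 in both libraries. Il17a was at 28.0 CPM without butyrate, with all its UMIs in 1 cell, and at 0 with butyrate. The T cell receptor list, with 13 genes outside the rule, had medians of 0.07 and 0.05. The 16 homing and egress genes had medians of -0.10 and -0.08 over the 9 that passed. Gpr183, which guides cells to the follicle border, was at 201 against 246 CPM and 143 against 209 CPM, and Itga4, the α4 integrin, at 226 against 137 CPM and 176 against 123 CPM. Of 17 immediate early and stress genes, 15 passed with medians of 0.17 and 0.02, and Junb, the most abundant, was at 1317 against 1167 CPM and 1029.6 against 1016 CPM. The 7 butyrate receptors and transporters all stayed under the filter, with a summed level of 10.9 and 8.09 CPM, and the receptor genes Ffar2, Ffar3 and Hcar2 did not exceed 0.899 CPM in members.

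The genes lowest in the Izumo1r+ cells included Ccl5, Nkg7 and Trdc, and 0 genes were 2-fold lower in both libraries. Ccl5, a chemokine of effector T and NK cells, was at 119 against 226 CPM without butyrate (0.527-fold, 0.443 to 0.622) and 80.9 against 346 CPM with it (0.234-fold, 0.188 to 0.289). A single cell held 52.3% and 90.0% of the members' Ccl5 UMIs. Trdc was at 48.9 against 71.1 CPM and 8.09 against 58.5 CPM, and Nkg7, a cytotoxic granule protein, at 42.0 against 61.2 CPM and 20.7 against 74.0 CPM. Il18r1, a subunit of the interleukin 18 receptor, was at 22.5 against 35.8 CPM and 21.6 against 50.6 CPM, and the surface antigen gene Ly6c1 at 100.2 against 153 CPM and 76.4 against 132 CPM. Lmo4, a LIM domain transcription cofactor, was at 39.6 against 60.3 CPM and 36.9 against 71.0 CPM, and the unnamed transcript Gm12840 at 115 against 173 CPM and 94.4 against 169.6 CPM. Where a Cd4 UMI was required of both classes, the mean log2 ratio over the libraries went from -1.19 to 0.49 for Trdc, from -0.95 to 0.37 for Nkg7, from -0.84 to 0.44 for Ly6c2, from -1.42 to 0.02 for Ccl5 and from -0.65 to 0.01 for Lmo4. That of Il18r1 went from -0.72 to -0.15, and those of Ly6c1 (-0.84) and Gm12840 (-0.81) also stayed below 0. Members were rare in cluster 9, which was led by Ccl5, Nkg7, Ly6c2 and Trdc, with 1.72% and 1.11% of members against 5.41% and 5.45% of the other gated cells. The hemoglobin genes Hbb-bs and Hba-a1 were also low in members with butyrate, Hbb-bs with 2.70 CPM against 583 CPM, but 1 of the other gated cells held 98.9% of their Hbb-bs UMIs and 99.0% of their Hba-a1 UMIs. With doublets removed the mean log2 ratios of Hbb-bs and Hba-a1 were -0.27 and -0.02.

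Between the libraries, the genes past 2-fold in the Izumo1r+ cells were mainly interferon-response genes. Of 2277 genes with a mean of at least 50 CPM in members, 0 (0%) were at least 2-fold higher and 8 (0.351%) at least 2-fold lower with butyrate. The other gated cells gave 3 and 3 of 2201 genes. Their higher genes include Hbb-bs and Hba-a1, of which 1 cell held 98.9% and 99.0% of the UMIs with butyrate. The 8 were Ifit3, Isg15, Ifit1, Rnf213, Ifi213, Irf7, Slfn5 and Rtp4. All of them except Isg15 and Slfn5 passed the filter through the library without butyrate alone, where they were high. Of these 8 calls, 1 was kept with cells thinned to 2000 UMIs (Ifit3), 1 without cells of 2 or more regulatory markers (Rnf213), 4 with Cd4 required, 4 without cells holding Ikzf2 or Il2ra and 5 by the mean of per-cell CPM. All 8 stayed below 0 in the first and second of these settings, and the weakest was Rtp4 when thinned, at -0.27. Of 25 interferon-response genes, which follow type I or type II interferon, 20 passed, all 20 were below 0, against 1190 of all 2277 genes, and 7 were past 2-fold. Their median log2 ratio was -0.79 in members and -0.80 in the other gated cells, against -0.01 and 0.00 over all genes. With no filter on low genes, the median of the list in members was -0.78.

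Ifit3, an antiviral effector, was at 101 CPM without and 25.2 CPM with butyrate in members (0.249-fold, 0.159 to 0.377) and at 61.5 and 9.67 CPM in the other gated cells (0.157-fold, 0.119 to 0.205). Isg15, a ubiquitin-like modifier, was at 225 and 92.6 CPM in members (0.413-fold, 0.326 to 0.518) and at 178 and 58.9 CPM in the other gated cells. Slfn5, a Schlafen family member, was at 178 and 81.8 CPM in members and 143 and 82.1 CPM in the other gated cells, and the PYHIN family gene Ifi213 at 107 and 45.0 CPM against 109 and 54.2 CPM. Rnf213, a ubiquitin ligase outside the list, was at 110 and 45.0 CPM in members and 97.4 and 54.6 CPM in the other gated cells. The share of members in cluster 4, led by Ifit1, Isg15 and Ifit3, was 13.4% without and 4.44% with butyrate, and that of the other gated cells 20.1% and 6.42%. Both classes of cells showed the lower level, and whether its size differed between them was not tested. With 1 library a condition, butyrate cannot be told apart from any other difference between the 2 pools.

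**Figure D5:**
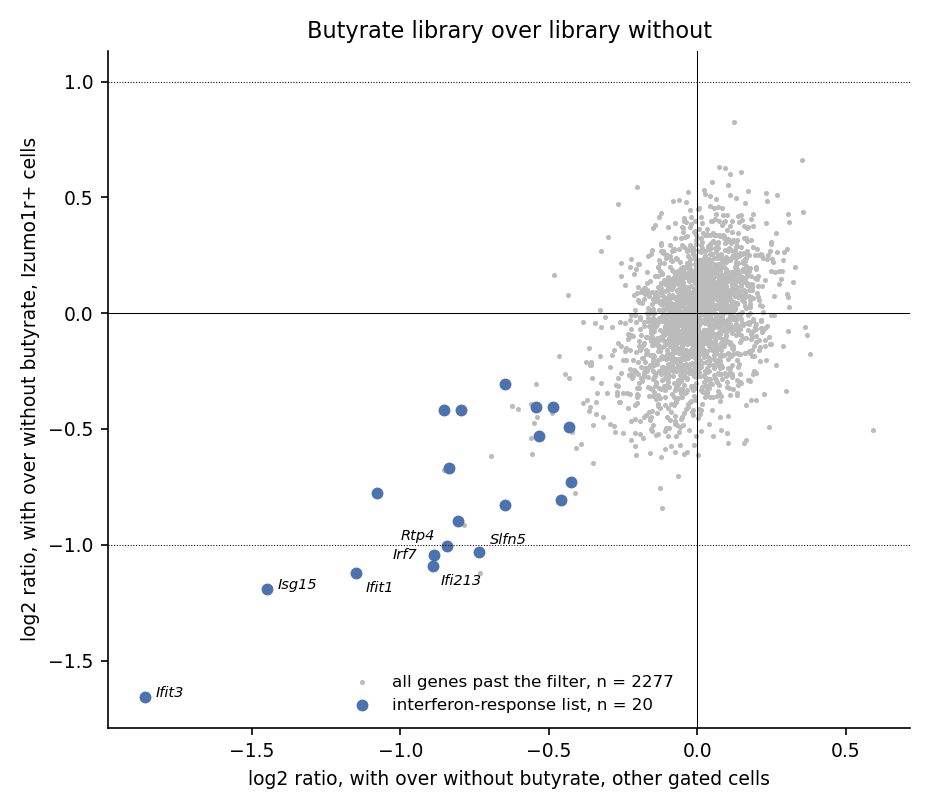
Log2 ratio of CPM (10 CPM added) with over without butyrate in Izumo1r+ cells (vertical axis) against the other gated cells (horizontal axis) for 2277 genes, with the interferon-response list in blue. All 20 blue points lie below 0 on both axes, with medians of -0.79 and -0.80, and 0 genes reach 2-fold above on the vertical axis.

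The genes highest with butyrate in members stayed under 2-fold. They were led by Nap1l1, a nucleosome assembly protein, at 118 and 184 CPM (1.56-fold, 1.26 to 1.94), and Trbc1, a T cell receptor β-chain constant gene, at 925 and 1373 CPM (1.48-fold, 1.37 to 1.60). Il16 was at 100 and 148 CPM, Tesc at 78.5 and 117 CPM and Chrac1 at 77.7 and 115 CPM. In the other gated cells, Nap1l1 was at 1.09-fold and Trbc1 at 1.04-fold. The medians of the other lists lay between -0.36 and 0.06, the first that of a single gene, Adk. Effector or memory genes had a median of -0.23 in members, with 10 of 11 below 0. In the other gated cells their median was 0.07, with 2 below 0. Immediate early and stress genes had medians of -0.21 and -0.22 in the 2 classes, with 12 and 11 of 13 below 0. Of all 2277 genes, 1190 were below 0 in members. Whether these lists differed between the classes was not tested. Regulatory T cell markers had a median of -0.11 in members and -0.12 in the other gated cells. Ikzf2 was at 193 CPM without and 123 CPM with butyrate and Nrp1 at 77.7 and 49.5 CPM, while Il2ra was at 37.3 and 51.3 CPM. The genes tied to anergy and receptor brakes had medians of -0.05 in both classes of cells.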

How the data were processed

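The authors deposited UMI counts per gene and cell, not normalized, for 31053 genes. Per the submitters' processing notes, Cell Ranger 6.0.1 and mm10 were used. Barcodes in which mitochondrial genes took more than 10% of the UMIs, or in which fewer than 200 genes were detected, were dropped, 186 without and 327 with butyrate. Doublets were kept for the main values. An alternative dropped those ranked highest by Scrublet, assuming a rate of 0.8% for every 1000 cells, which took 721 and 592 cells, 1 and 2 of them Izumo1r+. Shares have exact binomial (Clopper-Pearson) intervals and ratios of summed counts exact conditional intervals, at 95%, and where no UMI was seen, the upper limit is 3 UMIs. CPM were computed from the UMIs summed over a class of cells in a library. Ratios used to count genes had 10 CPM added, while the folds of single genes had none.

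Foxp3+ cells met the conditions on Cd3, Cd8, Cd79 and cycling genes and had a Foxp3 UMI. Tfh-marker cells met them with no Foxp3 UMI. CD8+ T cells had a UMI of Cd8a or Cd8b1 and none of Cd4 or Cd79, and B cells had no Cd3 UMI and had UMIs of Cd79 and Ms4a1. Clustering used scanpy 1.11.5 and igraph 0.11.9 on values normalised to 10000 per cell (30 components, 15 neighbours, Leiden resolution 1, libraries not integrated). Python 3.11.15 was run with numpy 2.4.6, pandas 2.3.3 and scipy 1.17.1, and the ratio calculation was checked on simulated counts. The members, the 18 gene lists, the filters and the alternatives were chosen with earlier results of these data known. Named genes were those of the rule, 2 to 4 of each list by level or ratio, the 10 highest and 10 lowest ratios between classes of cells (same sign in both libraries, 50 CPM or more) and the 5 highest and 5 lowest between libraries (100 CPM or more). 1 planned set of comparison cells and some genes of the lists are not reported here.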

Additional observations from a re-analysis of the deposited data

Results flagged for a closer look

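The rule leaves out any cell with a UMI of Cd79a or Cd79b, and some of the cells left out met its other conditions. Among T cells with 1 to 3 UMIs of these B cell genes, 46 of 294 without and 44 of 255 with butyrate met every other condition, a share of 15.6% and 17.3%, against 14.2% and 13.7% in the gate. Ms4a1 was detected in 1.70% and 3.14% of these T cells, against 93.8% and 98.2% of the cells with 10 or more such UMIs. Counting them as gated gave shares of Izumo1r+ cells of 14.4% and 14.2%, a setting added once these values were known.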

How the results depend on the processing

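Each condition is 1 pool of mice, so differences between libraries have no replicate check. No paired analysis was possible because each group has 1 library. Over 65 results, 711 alternative values were computed, of which 624 were classed as the same, 84 as moved and 3 as reversed. These classes do not follow the sign alone. Values classed as the same include the anergy median of members over other gated cells, which went from 0.13 to -0.003 when thinned. They also include Il18r1, from -0.72 to -0.15 with Cd4 required. Trdc, which went from -1.19 to 0.49 with Cd4 required, is classed as moved. The log2 ratio of the shares of Izumo1r+ cells, with over without butyrate, lay between -0.31 and -0.02 under the 9 alternatives run, each with an interval that spans 0. The 10 genes higher in Izumo1r+ cells numbered 17 with 1 CPM added, 5 with the filter at 50 CPM, 16 with ribosomal, mitochondrial and receptor genes out of the total, 19 with Cd4 required and 3 without cells holding Ikzf2 or Il2ra. Under the total without ribosomal genes 3 were lower, and with no filter, thinned or weighted by depth 1 each. With butyrate, 2 genes were higher with no filter, with Cd4 required or without Ikzf2 or Il2ra cells and 4 when thinned, and 25 were lower with no filter, 13 without ribosomal genes and 14 when thinned, where 1 of the 8 was shared. The regulatory T cell median of members over other gated cells was 0.95 with no filter. Over the genes that passed the filter, some through the members alone, it is not read as a result, and it moved to 2.32 with 1 CPM added and 0.27 without Ikzf2 or Il2ra cells. With Cd4 required, the effector or memory median was 0.71. Leaving out cells with 2 or more regulatory markers, chosen after the data were seen, gave 0 genes higher and 1 lower, 2 higher and 2 lower with butyrate, and medians of 0.015 for regulatory, 0.32 for Tfh-linked and -0.016 for costimulatory genes. Ikzf2 was then at -0.61, a sign that the setting does not fix, and its cause was not tested. Without Ikzf2 or Il2ra cells, Ikzf2 and Il2ra were at 0 by construction. Causes of the other changes were not tested. The share of Izumo1r+ cells in the cluster led by Foxp3 stayed between 22.8% and 25.6% over 2 other resolutions and another seed. Genes such as Lag3 (6 and 7 UMIs in the Izumo1r+ cells of a library) and Egr2 (8 and 5) rest on few UMIs. The part of depth in this was not tested.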
